A study of Drosophila melanogaster with 39 samples.

Results

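FLAG-HA-tagged Piwi in which the specificity loop had been exchanged for the loop of AtAGO1 or AtAGO5, 2 plant Argonautes from Arabidopsis thaliana, was purified from Drosophila melanogaster ovarian somatic sheath cells (OSC), and the bound small RNAs were sequenced. These are Piwi-SL(AtAGO1) and Piwi-SL(AtAGO5), with 1 library each. They were chosen by their labels as 2 of the 39 libraries of the series and of the 20 libraries of tagged Piwi from OSC, and are set here against each other and against Piwi with its own loop (wt, 5 libraries). The other 13 OSC libraries, of 7 further loop variants, are used only to place these values.

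OSC are a cell line of somatic cells of the fly ovary. Every construct was expressed from an episomal plasmid after transient transfection, in cells of 1 constant genetic background, and was recovered through its FLAG tag. The constructs thus differed by label only in the loop, while the untagged Piwi that OSC make themselves was present under all of them. The labels do not say whether the 5 wt libraries came from separate transfections, so their spread may be partly technical. With 1 library per plant loop there is no replicate check, and a permutation of 1 library among 6 cannot go below p = 0.167. No test was therefore made, and each value is placed against the 5 wt values.

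Piwi is the nuclear PIWI protein of flies, and it uses piRNAs to direct the silencing of transposons. In OSC, piRNAs are cut from long precursor transcripts, many of them antisense to transposons. Once Piwi holds a piece, its 3′ end is made by a second cut or by trimming. The specificity loop is a short stretch of the MID domain, the part of an Argonaute that holds the first nucleotide of the guide RNA. AtAGO1 is the main microRNA-binding Argonaute of the plant and prefers guides that start with U, while AtAGO5 prefers guides that start with C. First nucleotides were not analysed here. The values below describe the length, the mapping and the genomic origin of the bound reads.

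The forward mutagenesis oligonucleotides of the plant loops are shown because the study lists them for making each construct. Their sequences come from the study's own list, which assigns them to the loop constructs of piwi (FBgn0004872, minus strand, chr2L:10982205-10987420 in the coordinates of dm6). They were not matched to a genome here, and whether their flanks are piwi sequence was not checked. Capitals mark the longest run of bases that an oligonucleotide shares with the forward oligonucleotide of any other construct. The oligonucleotide for the loop of Ago3, another fly PIWI protein, is given because it shares the longest run with that of AtAGO5.
AtAGO1 forward: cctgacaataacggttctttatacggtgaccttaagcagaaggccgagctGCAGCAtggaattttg
AtAGO5 forward: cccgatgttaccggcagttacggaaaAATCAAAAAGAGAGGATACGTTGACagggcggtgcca
Ago3 forward: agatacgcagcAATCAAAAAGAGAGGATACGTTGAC
The AtAGO5 oligonucleotide has 63 bases and shares a run of 25 bases (positions 27 to 51, counted from its 5′ end) with that of the Ago3 loop only. With the other 6 constructs that have no plant loop, its longest shared run is 12 to 14 bases. These are the first bases of the 25-base run and the last bases of those oligonucleotides, which stop there. The length of a run thus depends on where an oligonucleotide ends, and it does not measure how alike the loops are. The AtAGO1 oligonucleotide has 66 bases, and its longest run in common with any oligonucleotide of another construct, on either strand, is 6 bases. Among themselves, the forward oligonucleotides of the 7 constructs without a plant loop share runs of 15 bases (Ago3) or of 20 to 26 bases (the other 6). For both plant loops the reverse oligonucleotide is the exact reverse complement of the forward one, which holds for none of the other constructs. The AtAGO1 oligonucleotide thus has no stretch in common with the others of the length found for that of AtAGO5. That the AtAGO1 construct is Piwi with only its loop exchanged therefore rests on its label, and was not tested on the sequence.

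Depth differed widely. The AtAGO1 library had 35676519 raw reads and the AtAGO5 library 4641639, against 10646672, 6336981, 10745821, 4120228 and 2861749 in wt replicates 1 to 5. Both plant-loop libraries hold enough reads that the exact Clopper-Pearson 95% interval of a share is far narrower than the spread between wt libraries. For the share of 20–23 nt reads it ran from 44.13 to 44.17% in AtAGO1 and from 10.99 to 11.06% in AtAGO5. These intervals cover counting error only, since PCR reads without molecular identifiers are not independent molecules. Sample barcode 83 of AtAGO5 was also used for 1 Ago3-loop library and barcode 75 for both wt replicates 1 and 5, while AtAGO1 carried barcode 93. Whether libraries were prepared together is not given in the sources used here.

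The wt libraries were not alike in length, which sets the scale for both loops. In wt replicates 1, 2 and 3 the mean length of reads of 20–30 nt was 25.77, 25.70 and 25.87 nt. Replicate 4 was shorter at 24.89 nt and replicate 5 longer at 26.76 nt. These 2 libraries lay outside the range of the other 4 wt libraries at 10 and 11 of the 11 lengths, whereas replicates 1, 2 and 3 did so at 0, 0 and 1. The comparisons of profiles, of short reads and of unique mappers below are therefore also given without replicates 4 and 5, a choice made after the data had been seen.

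In the AtAGO1 library the bound small RNAs were shorter on average than in any wt library, and reads of 20–23 nt made up 44.1% of its 20–30 nt reads. In the AtAGO5 library the lengths lay between those of the wt libraries. Mean length was 23.8 nt for AtAGO1 and 25.6 nt for AtAGO5, against 25.8 ± 0.666 nt in wt (SD, n = 5). AtAGO1 lay 1.13 nt below the shortest wt library and was the shortest of all 20 OSC libraries. AtAGO5 was 0.14, 0.07 and 0.24 nt shorter than wt replicates 1, 2 and 3, 0.75 nt longer than replicate 4 and 1.13 nt shorter than replicate 5.

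**Figure D1:**
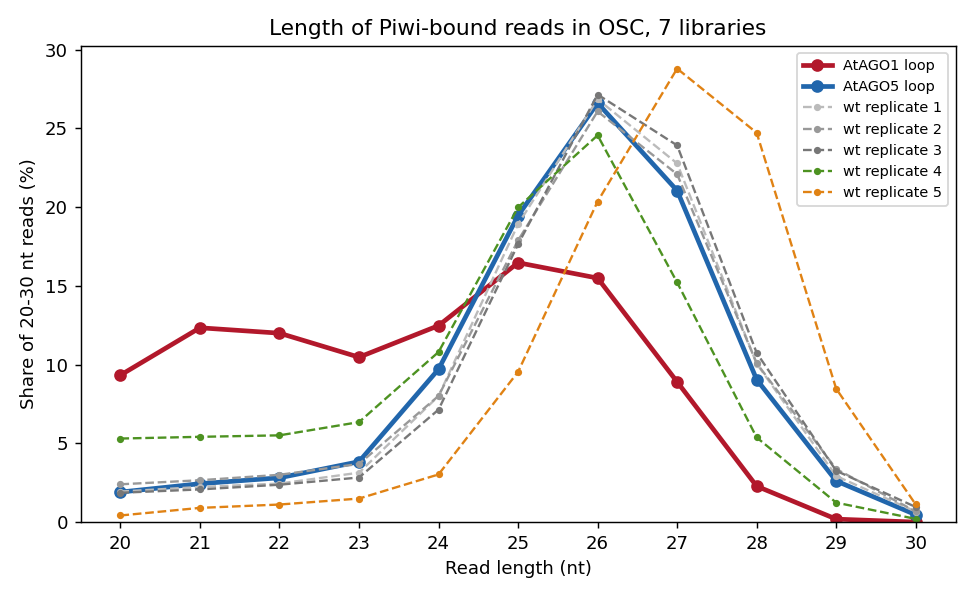
Share of 20–30 nt reads (%, vertical axis) at each read length (nt, horizontal axis) in the AtAGO1, AtAGO5 and 5 wt libraries, 1 line per library. AtAGO1 has maxima at 21 and 25 nt. AtAGO5 lies near wt replicates 1 to 3, with its maximum at 26 nt like theirs. It is above these 3 replicates at 23, 24 and 25 nt and below them at 27, 28, 29 and 30 nt. The profiles of wt replicates 4 and 5 lie on either side of AtAGO5 and replicates 1 to 3.

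The AtAGO1 profile had 2 maxima. From 20 to 23 nt its shares were 9.33, 12.34, 11.999 and 10.47%, so that the first maximum was at 21 nt and the dip at 23 nt. From 24 to 27 nt they were 12.5, 16.5, 15.5 and 8.91%, with the main maximum at 25 nt. The shares at 28, 29 and 30 nt were 2.29, 0.198 and 0.0097%, the last from 2856 reads. Every wt library had 1 maximum, at 26 nt in replicates 1 to 4 and at 27 nt in replicate 5, and AtAGO1 alone among the 20 OSC libraries was most frequent at 25 nt. A second maximum at 21 or 22 nt was also present in 4 of the other 13 mutant libraries, namely GSS replicates 2 and 3 and LD replicates 1 and 3 (GSS is a flexible synthetic loop, LD has no loop).

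The AtAGO5 profile had 1 maximum, at 26 nt. From 20 to 23 nt its shares were 1.91, 2.45, 2.82 and 3.84%, with no local maximum among them. From 24 to 27 nt they were 9.71, 19.5, 26.6 and 21.05%. At 28, 29 and 30 nt the shares were 9.06, 2.62 and 0.475%. Its most frequent length was thus that of wt replicates 1 to 4.

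At each length from 20 to 24 nt the AtAGO1 share was above all 5 wt libraries, and at each length from 26 to 30 nt it was below all 5. The excess was largest at 21 nt, where AtAGO1 had 12.3% and wt 2.66 ± 1.67% (SD, n = 5), a ratio of 4.63 to the wt mean. The ratio was 3.90 at 20 nt, 4.14 at 22 nt, 2.99 at 23 nt and 1.69 at 24 nt. It passed through 0.98 at 25 nt and went down with each further nucleotide, to 0.62, 0.40, 0.19, 0.051 and 0.013 at 26, 27, 28, 29 and 30 nt. AtAGO1 was therefore both rich in short reads and poor in long ones. Against wt replicate 4, which was closest to AtAGO1 at both 21 and 29 nt, its share was still 2.28 times as high at 21 nt and 0.16 times as high at 29 nt.

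AtAGO5 stayed inside the range of the wt libraries at every length. Its ratio to the wt mean ranged from 0.65 at 30 nt to 1.31 at 24 nt. It was 0.92 at 21 nt, 1.06 at 26 nt and 0.74 at 28 nt. The departures were ordered: the ratio was above 1 at 23, 24, 25 and 26 nt and below 1 at the other 7 lengths. At 28 nt the wt mean was raised by replicate 5, which had 24.7% where the other wt libraries had 5.38 to 10.7%.

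**Figure D2:**
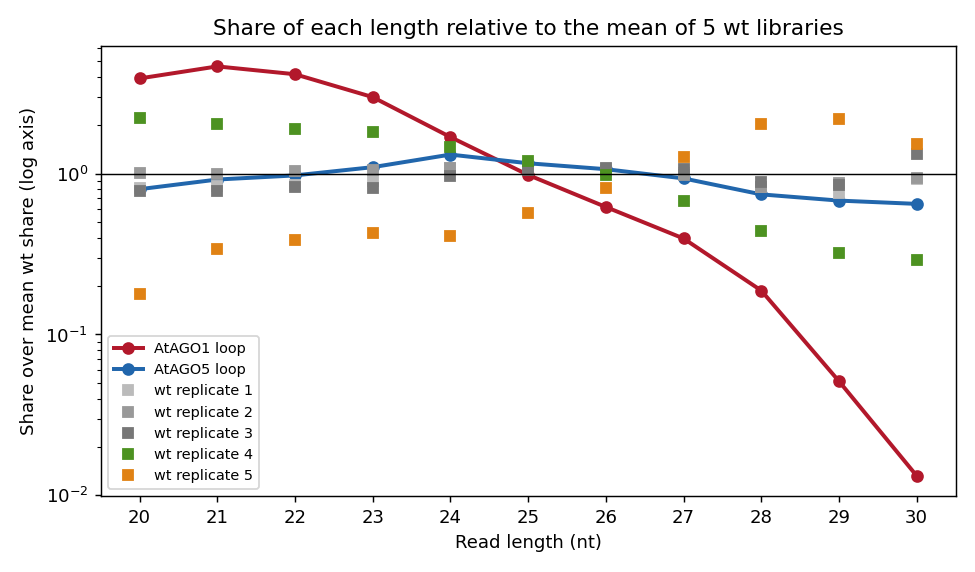
Ratio of the share of each library to the mean share of the 5 wt libraries (log axis) at each read length (nt), with lines for the AtAGO1 and AtAGO5 libraries and 1 square per wt library. AtAGO1 goes from 4.63 at 21 nt to 0.013 at 30 nt and leaves the wt squares at all lengths but 25 nt, while AtAGO5 stays between 0.65 and 1.31.

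Counted over lengths, 10 of 11 AtAGO1 shares (90.9% of those compared) and 0 of 11 AtAGO5 shares (0% of those compared) lay outside the range of the 5 wt libraries. The count alone did not set AtAGO1 apart, since wt replicates 4 and 5 were outside the range of their own group at 10 and 11 lengths. The size of the departure was larger for AtAGO1. The absolute differences from the mean wt profile, summed over the 11 lengths, came to 75.5 percentage points for AtAGO1 and 13.8 for AtAGO5. Each wt library, measured in the same way against the mean of the other 4, gave 11.997, 7.77, 11.5, 44.3 and 59.4 points for replicates 1 to 5. AtAGO1 thus lay farther out than any wt library and AtAGO5 within them.

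Compared library by library, AtAGO1 was 77.7, 73.7, 80.6, 46.4 and 113.1 points from wt replicates 1 to 5, and AtAGO5 was 7.04, 7.89, 12.5, 26.4 and 59.8 points from them. The 10 pairs of wt libraries were 4.98 to 82.1 points apart, the widest pair being replicates 4 and 5. Replicate 5 was 48.4 points or more from every other wt library. It was only 7.31, 10.4, 10.7 and 11.2 points from the loop variants Piwi N>P, HsAGO2 P>T, Aub and HsAGO2. The nearest library to replicate 4 was GSS replicate 2 (6.76 points). Whether shared preparation lies behind this was not tested. AtAGO1 and AtAGO5 differed from each other by 71.8 points, or by a mean shift of 1.88 nt, which is less in points than the widest wt pair (82.1 points) and the same to 2 decimals in mean shift (1.88 nt). Among all OSC libraries the nearest to AtAGO1 were LD replicate 3 (42.1 points) and wt replicate 4. The nearest to AtAGO5 was wt replicate 1, followed by wt replicate 2.

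**Figure D3:**
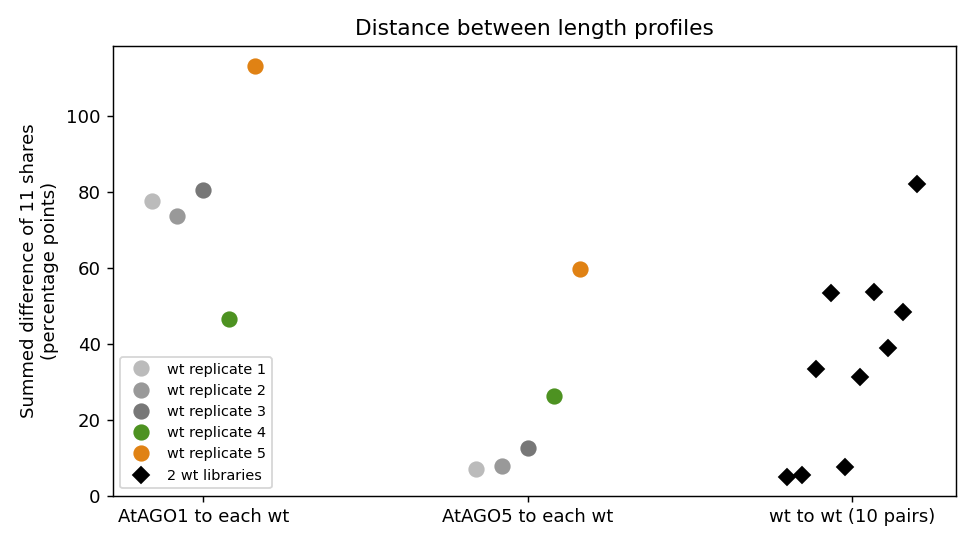
Summed absolute difference of the 11 length shares (percentage points, vertical axis) between AtAGO1 and each wt library, between AtAGO5 and each wt library, and between the 10 pairs of wt libraries, 1 point per pair. AtAGO1 is 46.4 to 113.1 points from wt and AtAGO5 7.04 to 59.8, against 4.98 to 82.1 within wt.

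Leaving out wt libraries left the AtAGO1 result in place and altered that of AtAGO5. Without wt replicates 4 and 5, AtAGO1 was outside the wt range at 11 of 11 lengths and 77.3 points from the wt mean. AtAGO5 was then outside at 7 of 11 lengths, above wt at 23, 24 and 25 nt and below it at 27, 28, 29 and 30 nt, though only 8.48 points from the wt mean. Leaving out replicate 4 alone also gave 7 of 11. At 24 nt, for example, AtAGO5 had 9.71% and wt replicates 1, 2 and 3 had 8.01, 8.02 and 7.15%. The position of AtAGO5 inside the wt range at these 7 lengths thus rested on replicate 4.

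The reads of 24–29 nt, the window in which the study counts piRNAs, and the shorter reads were next taken apart. The share of 20–23 nt reads was 44.1% for AtAGO1 and 11.02% for AtAGO5, against 9.79, 11.8, 9.17, 22.6 and 3.97% in wt replicates 1 to 5. AtAGO1 held 1.95 times the share of wt replicate 4, the highest wt library, and the other 13 mutant libraries reached at most 24.7%. Replicates of the same mutant could differ widely, with 10.8, 20.6 and 6.17% in GSS and 24.7, 9.63 and 24.7% in LD. Those of Ago3 had 10.5, 10.6 and 7.83%. How far an AtAGO1 replicate would differ is not known. AtAGO5 lay among wt replicates 1, 2 and 3. Against the wt mean the difference was 32.7 percentage points for AtAGO1 and −0.44 for AtAGO5, and without wt replicates 4 and 5 it was 33.9 and 0.78 points. Reads of 24–29 nt were 55.8% for AtAGO1 and 88.5% for AtAGO5, against 87.8 ± 6.53% in wt (SD, n = 5). For every 100 reads of 24–29 nt there were 79.1 reads of 20–23 nt in AtAGO1 and 12.5 in AtAGO5, against 13.6 ± 9.40 in wt.

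The shortening was present inside the piRNA window too. The mean length of the 24–29 nt reads, in which shorter reads take no part, was 25.51 nt for AtAGO1 and 26.09 nt for AtAGO5, against 26.19, 26.21, 26.26, 25.85 and 26.93 nt in wt replicates 1 to 5. AtAGO1 was again below all wt libraries and below all other OSC libraries. Of these reads, 24 nt reads were 22.3% in AtAGO1 and 10.97% in AtAGO5, against 8.65 ± 3.85% in wt, and reads of 27–29 nt were 20.4% and 37.0%, against 43.3 ± 13.5% in wt (SD, n = 5). AtAGO1 was outside the wt range on both sides of the window. AtAGO5 was inside it on both sides only because of wt replicate 4: the other 4 wt libraries had 3.20 to 9.16% at 24 nt, below AtAGO5, and 39.9 to 65.3% at 27–29 nt, above AtAGO5. The share of 26 nt reads within the window was 27.7% for AtAGO1 and 30.1% for AtAGO5, both inside the wt range of 21.4 to 31.8%.

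Reads of both loops mapped to dm6 about as often as those of wt, but fewer of the mapped reads had a single position. Mapped reads, that is unique mappers plus reads with up to 100 positions, were 91.8% of raw reads for AtAGO1 and 90.6% for AtAGO5, against 91.0, 90.5, 91.2, 91.7 and 82.6% in wt replicates 1 to 5. The AtAGO1 share was the highest of all 20 OSC libraries, though only slightly above wt replicate 4. AtAGO5 was inside the wt range. In every library the mapping classes summed to the raw reads, with no class for the structural RNAs that the authors removed before. The reads labelled raw may therefore be those that entered mapping to the genome, not all sequenced reads.

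Unique mappers were 27.7% of the mapped reads for AtAGO1 and 30.8% for AtAGO5, against 35.1, 35.9, 33.8, 34.2 and 32.6% in wt replicates 1 to 5. Both loops were below all 5 wt libraries, and AtAGO1 was the lowest of the 20 OSC libraries. AtAGO5 had rank 10 from below among the 20, inside the range of the other mutants (28.8 to 34.4%). A share below all wt libraries was not particular to the plant loops, since 9 of the other 13 mutant libraries, namely all Ago3, GSS and LD libraries (28.8 to 30.9%), were below the lowest wt library too. For each unique mapper there were 2.62 multimappers in AtAGO1 and 2.25 in AtAGO5, against 1.92 ± 0.107 in wt (SD, n = 5). Leaving out any wt library, or both replicates 4 and 5, kept both loops below the wt mean. Taken over raw reads, unique mappers were 25.4% for AtAGO1, below all wt libraries, and 27.9% for AtAGO5, inside the wt range of 26.96 to 32.52%, whose low end is replicate 5 with its low mapped share. AtAGO1 had both the lowest mean length and the lowest unique share of the 20 OSC libraries. AtAGO5 was shorter in mean length than wt replicates 1, 2, 3 and 5. It was longer than replicate 4, which had 34.2% unique mappers. The part of length in the unique share was not tested.

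Reads outside 20–30 nt were 10.1% of the mapped reads in AtAGO1 and 7.36% in AtAGO5, against 5.55 to 7.22% in wt. Both were above all 5 wt libraries, AtAGO5 narrowly. Their lengths were not analysed here. Reads with more than 100 positions were rare in both loops, with 203 in every 1000000 raw reads of AtAGO1 and 286 of AtAGO5, inside the wt range of 165 to 326.

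**Figure D4:**
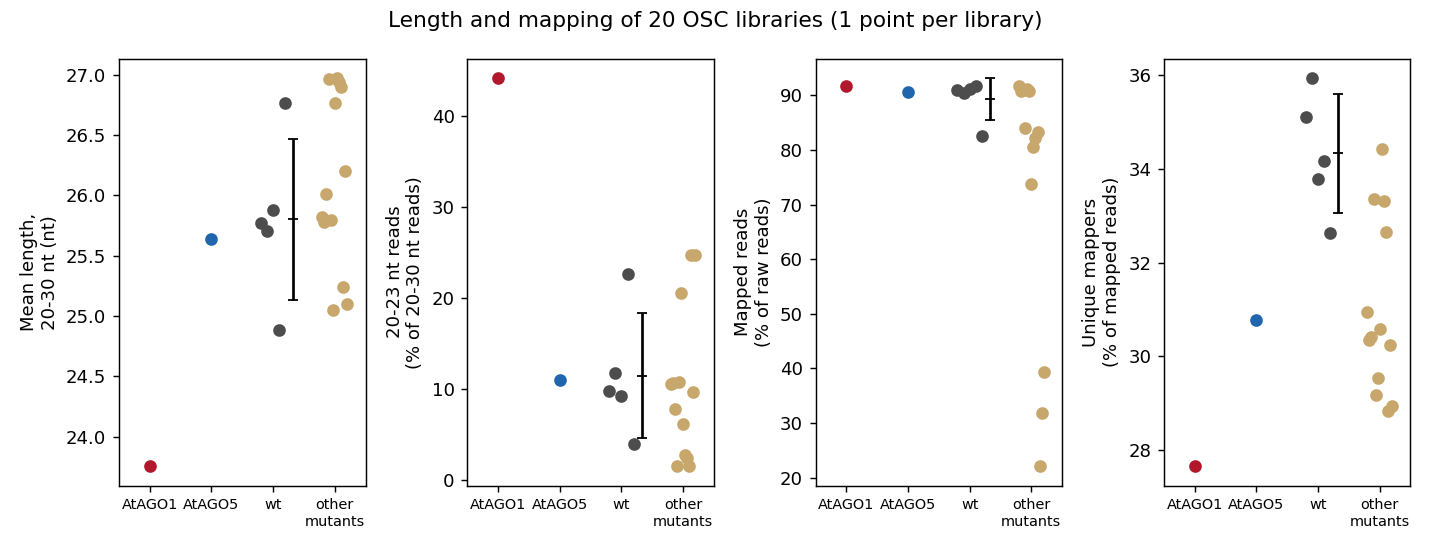
Mean length (nt), share of 20–23 nt reads, share of mapped reads and share of unique mappers (%) in 20 OSC libraries, 1 point per library, with AtAGO1, AtAGO5, wt and the other 13 mutant libraries from left to right and the wt mean ± SD (n = 5) as a bar. AtAGO1 is lowest in mean length (23.8 nt) and unique share (27.7%), and AtAGO5 leaves the wt points only in unique share (30.8%).

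In genomic origin the 2 loops were close to each other, and most other constructs were close to them too. Both bound mostly RNAs antisense to transposons, the strand that can pair with transposon transcripts. The annotation counts give 1 row per construct, so wt has no spread here. The totals of AtAGO1 (32753565 reads) and AtAGO5 (4206522 reads) equal their mapped reads of all lengths. The wt row holds 9716686 reads, 100.3% of the mapped reads of wt replicate 1, and its match to 1 library is not exact. Shares were computed over these totals.

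Antisense transposon reads were 63.8% for AtAGO1 and 63.7% for AtAGO5, against 60.8% for wt. The loops differed from each other by 0.034 percentage points here. The AtAGO1 share lay inside the counting interval of AtAGO5 (63.70 to 63.79%). The AtAGO5 share (63.74%) lay just below that of AtAGO1 (63.76 to 63.79%). These intervals give no spread between libraries. Sense transposon reads were 4.89% for AtAGO1 and 4.43% for AtAGO5, against 4.95% for wt. The antisense strand thus held 92.9% of the transposon reads of AtAGO1 and 93.5% of those of AtAGO5, against 92.5% for wt. The strand of transposon reads hardly moved with the loop, over a range of 1 percentage point in these 3 rows.

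Sense exon reads, which come from the mRNA strand of genes, were lower for both loops. They were 10.3% for AtAGO1 and 11.6% for AtAGO5, against 15.9% for wt, or 0.65 and 0.73 times the wt share. The wt value was above all 9 mutant constructs, of which the other 7 had 6.68 to 11.9%. The lower share therefore sets wt apart from every mutant row and is not particular to the plant loops. Several of the other rows have totals that do not match the mapped reads of the library they are named for, so their values serve as a range only. Antisense exon reads were 0.921% for AtAGO1 and 0.811% for AtAGO5, against 0.875% for wt.

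Intron reads and reads from the rest of the genome were slightly more frequent for both loops. Sense intron reads were 4.80% for AtAGO1 and 5.24% for AtAGO5, against 4.44% for wt. Antisense intron reads were 2.73% for AtAGO1 and 2.28% for AtAGO5, against 2.55% for wt. Reads outside transposons, exons and introns were 12.6% for AtAGO1 and 11.9% for AtAGO5, against 10.5% for wt. Both loops were above wt in the sense intron class and in the rest, and on opposite sides of it in the antisense intron and antisense exon classes.

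Summed over the 7 annotation classes, AtAGO1 differed from AtAGO5 by 3.57 percentage points, while AtAGO1 was 11.3 points from the wt row and AtAGO5 10.2 points. The sum over the 11 lengths had been 71.8 points between the loops, but the classes differ in number and size, so the 2 sums are not on 1 scale. Small annotation sums were not particular to the plant loops. From AtAGO1, every row lay 1.95 to 11.3 points away except that of LD (48.1 points). The nearest annotation row to each plant loop was that of the loop of Aub, also a fly PIWI protein, at 1.95 points from AtAGO1 and 2.77 points from AtAGO5. Length and origin are held in separate tables, so the origin of the 20–23 nt reads of AtAGO1 was not analysed here.

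**Figure D5:**
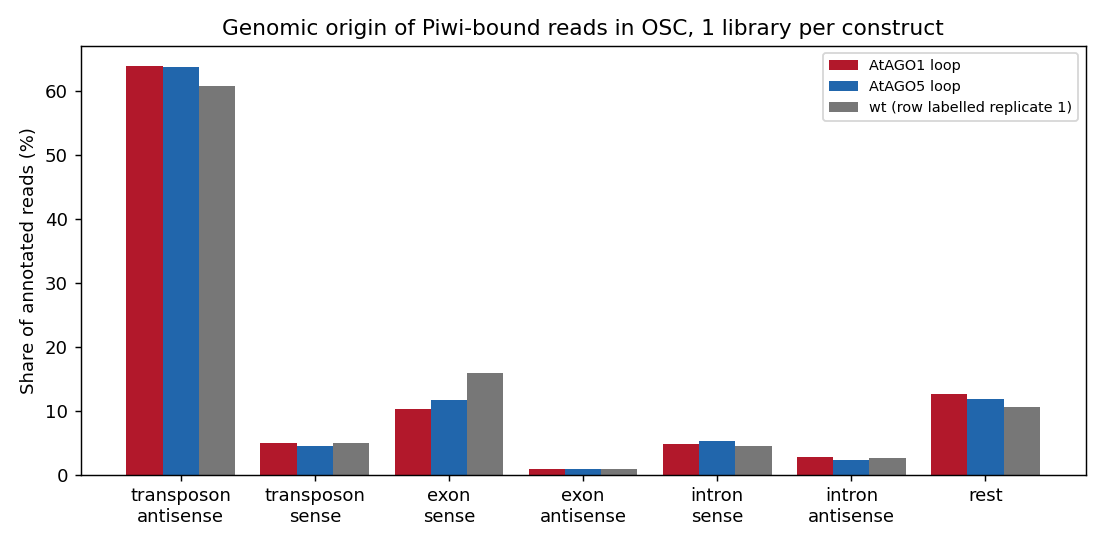
Share of annotated reads (%, vertical axis, from 0) in the 7 annotation classes for the AtAGO1, AtAGO5 and wt rows, 1 library per construct and no error bars. Antisense transposon reads lead in all 3 rows (63.8, 63.7 and 60.8%), and the widest gap to wt is in sense exon reads (10.3 and 11.6% against 15.9%).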

How the data were processed

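Counts were deposited by the authors, who trimmed adapters with cutadapt, removed structural RNAs and mapped the rest to dm6 with STAR. They give raw, uniquely mapped and multimapping reads (up to 100 positions) and mapped reads of 20–30 nt by length per library, and reads by annotation class for 1 library per construct. No normalization was applied to them, and 0 columns stayed unmatched to a sample. The ovary tables were not used here. Shares, mean lengths and summed differences of profiles were computed per library with pandas 2.3.3, scipy 1.17.1 and numpy 2.4.6 under Python 3.11.15 (matplotlib 3.10.9 for figures). The computations were tested on simulated data. Samples were grouped by their labels. Single shares have exact Clopper-Pearson 95% intervals. All lengths, mapping classes and annotation classes are described. A gene was to be named only by a match of an oligonucleotide to a reference sequence, which was not done, so piwi is named as the tagged gene. Alternatives were a window of 22–30 nt, shares of all mapped reads, summed wt counts, a mean shift in nt, other denominators and leaving out wt libraries. The libraries, measures and lists were chosen with earlier results of these data known.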

Additional observations from a re-analysis of the deposited data

Results flagged for a closer look

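Among the 5 wt libraries, replicate 5 stood apart in 3 measures by Dixon's criterion. It had 9.54% of its 20–30 nt reads at 25 nt, where the other 4 had 17.6 to 20.0%. At 28 nt it had 24.7%, where the others had 5.38 to 10.7%. Its mapped share was 82.6%, where the others had 90.5 to 91.7%. The loop variants nearest to it in length had similar mapped shares. They were 83.4% in Piwi N>P, 82.3% in HsAGO2 P>T, 84.1% in Aub and 80.6% in HsAGO2. Whether shared preparation lies behind this was not tested. In all, 18 measures were examined in this way, and chance flags about 1 in 20. AtAGO1 and AtAGO5 have 1 library each and could not be examined.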

How the results depend on the processing

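AtAGO1 kept its direction against wt in length, mapped share and unique share in the alternatives run. In the window of 22–30 nt its mean length was 24.6 nt, its share of reads below 24 nt 28.7% and its 24–29 nt share 71.3%. Expressed as a mean shift, its distance from the wt mean was 2.05 nt and that of AtAGO5 0.21 nt. Over raw reads, unique mappers were 25.4% for AtAGO1 and 27.9% for AtAGO5, the second of which lay inside the wt range (26.96 to 32.52%). Without reads outside transposons, exons and introns, antisense transposon reads were 73.0% for AtAGO1 and 72.3% for AtAGO5, against 67.9% for wt, and sense exon reads 11.8% and 13.2%, against 17.7%.
Leaving out each wt replicate in turn, AtAGO5 had 0 to 7 lengths outside the wt range (7 without replicate 4, and 7 without replicates 4 and 5), AtAGO1 10 to 11. The differences of AtAGO5 from wt in mean length (−0.39 to 0.08 nt), 20–23 nt share (−2.31 to 2.35 points), 24–29 nt share (−1.96 to 2.47 points) and mapped share (−0.45 to 1.82 points) changed sign. Without replicates 4 and 5 together the last 3 were 0.78, −0.48 and −0.25 points, each of opposite sign to the value with all 5. Those of AtAGO1 did not, with −2.27 to −1.80 nt in mean length and 30.8 to 35.5 points in 20–23 nt share.
No paired analysis was possible because AtAGO1 and AtAGO5 have 1 library each. The main limits are 1 library per loop and the spread between wt libraries. The fewest reads behind a length share of the plant loops were 2856 (30 nt in AtAGO1). How many molecules the reads stand for is not known, and the part of depth was not tested.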
